A study of Mus musculus with 12 samples.

Results

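The muscarinic acetylcholine receptors of the mouse, Chrm1 to Chrm5, were followed over 12 arrays of brain RNA. Every probe whose gene name in the scanner files is one of these 5 symbols was taken, which gave 8 of the 56568 probes and 5 of the 37306 genes analysed. Chrm1 had 3 probes, Chrm3 had 2, and the other receptors had 1 each. All 8 were well above background on all 12 arrays and none was saturated, so all 5 genes entered every comparison.

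The DKO mice carried Cre under Chat (ChatCre), a floxed allele on both chromosomes and PS2-/-. The control (Con) mice were Cre-negative with the same floxed allele and PS2+/-, so both genotypes shared the floxed allele and the controls had 1 working copy of PS2. PS2 is presenilin 2, encoded by Psen2, a catalytic subunit of gamma-secretase. The animals were 3 DKO and 3 Con mice, labelled male and 2 months old, and total RNA of basal forebrain and of cerebral cortex came from every mouse, giving 4 groups of 3 arrays. Cre acts only in cells that have used the Chat promoter, whereas PS2 is missing from every cell of the DKO mice.

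Muscarinic receptors are G-protein-coupled receptors for acetylcholine. Chrm1, Chrm3 and Chrm5 couple mainly to Gq, which activates phospholipase C, releases stored calcium and closes the potassium channels of the M-current. Chrm2 and Chrm4 couple mainly to Gi/o, which lowers cyclic AMP and opens GIRK potassium channels. Basal forebrain holds the cell bodies of the cholinergic neurons that supply cortex. Chrm1 is known as the main receptor on cortical pyramidal neurons, Chrm2 as an autoreceptor on cholinergic terminals, Chrm4 as a receptor of striatal projection neurons and Chrm5 as a receptor of midbrain dopamine neurons.

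The receptors are related in sequence, so the probes are shown first to make clear what each signal reads. One probe each of Chrm2, Chrm3, Chrm4 and Chrm5 is printed, including the pair of probes with the longest shared stretch. Capitals mark the longest run of bases shared with a probe of another receptor, and each sequence reads 5′ to 3′ from the scanner files.
Chrm2 probe 1: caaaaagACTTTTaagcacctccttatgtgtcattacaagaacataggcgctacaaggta
Chrm3 probe 2: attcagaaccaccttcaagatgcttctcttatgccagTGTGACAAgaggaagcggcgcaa
Chrm4 probe 1: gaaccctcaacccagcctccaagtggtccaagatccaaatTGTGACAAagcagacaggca
Chrm5 probe 1: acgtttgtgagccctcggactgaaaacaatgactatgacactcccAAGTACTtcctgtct
The longest such run was 8 bases of the 60 in a probe, between Chrm3 probe 2 and Chrm4 probe 1. Over the 24 pairs of probes of different receptors the longest shared run was 4 to 8 bases. The total match between probes, and that of a probe to the transcripts of the other receptors, was not measured.

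In the mm9 build, as the scanner files give it, the Chrm2 probe lies at chr6:36474550-36474609 on the plus strand and the Chrm4 probe at chr2:91768397-91768456, also on the plus strand. The Chrm5 probe lies at chr2:112319835-112319894 on the minus strand. Chrm3 has probe 1 at chr13:9875880-9875939 and probe 2 at chr13:9876539-9876598, both on the minus strand. Chrm1 has probe 1 at chr19:8758011-8758070 and probe 3 at chr19:8755342-8755401 on the plus strand. Its probe 2 spans chr19:8739471-8752391, which is 12921 bases for a probe of 60, so its bases come from separate stretches of the genome. Probe 1 of a gene is its brightest, and stands for the gene below. An exon or UTR annotation of this build was not used here.

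Levels below are log2 intensity relative to the 75th percentile of the array, which is set to 0. Because probes differ in how strongly they bind, levels are compared between groups for 1 probe and never between receptors. A gene or probe passed a comparison when its adjusted p was under 0.05, from limma with Benjamini-Hochberg adjustment over all genes (or all probes) that entered. In tissue RNA, fewer cells that make a transcript and less transcript per cell cannot be told apart.

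Facts of the whole series bear on the values. Psen2 fell by 1.87 in DKO basal forebrain and by 2.12 in DKO cortex (adjusted p = 0.0334 and 0.000327, limma). Slide 1 held the 6 basal forebrain arrays and 2 cortex arrays, those of DKO mice 1 and 2, and slide 2 held the cortex arrays of DKO mouse 3 and of the 3 Con mice. In Con, region and slide therefore cannot be told apart. On the 4 arrays of DKO mice 1 and 3, Xist was well above background and Ddx3y, Eif2s3y and Uty were not, which goes against their label male. Kdm5d, also Y-linked, went the other way. It was well above background on all 12 arrays, with -0.68, -1.20, -0.27 and 0.04 on those of DKO mice 1 and 3. As a check of the dissection, 9 of 9 cholinergic neuron markers and 10 of 10 striatal medium spiny neuron markers passed as higher in basal forebrain than in cortex in both genotypes, and 8 of 9 cortical excitatory neuron markers passed as lower, where 18.5% of all genes passed as higher in DKO and 18.4% in Con, and 19.8% and 30% as lower. Choroid plexus markers passed as lower in basal forebrain too, 5 of 5 in DKO and 4 of 5 in Con, with a median difference of -5.81 in DKO and -5.38 in Con. Their mean level per array was -3.92 to -3.63 in DKO basal forebrain and 1.42 to 2.07 in DKO cortex, and -4.29 to -2.16 and 0.88 to 1.92 in the same regions of Con. The mean level of the striatal list per array was 4.52 to 4.71 in DKO basal forebrain and 2.54 to 3.08 in DKO cortex, and 4.30 to 4.94 and 2.68 to 3.16 in the same regions of Con. The part of striatal and choroid plexus cells in the region differences of the receptors was not tested.

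Between the regions, the 5 receptors went different ways. Chrm1 and Chrm3, both Gq-coupled, were lower in basal forebrain than in cortex in both genotypes, and Chrm5, the third Gq-coupled receptor, was higher. Chrm2, Gi/o-coupled, passed as higher in basal forebrain in Con, where region and slide coincide, and did not pass in DKO. Chrm4 did not pass in either genotype. In DKO, 3 of 5 receptors passed, 1 higher and 2 lower, where 38.3% of all genes passed, 18.5% higher and 19.8% lower. In Con, 4 of 5 passed, 2 higher and 2 lower, where 48.4% of all genes passed, 18.4% higher and 30% lower. By probe, 5 of 8 passed in DKO, where 38.4% of all probes did, and 6 of 8 in Con, where 47.2% did. The same 3 receptors had groups without overlap in DKO and the same 4 in Con, as had 48.6% of all genes in DKO and 61.2% in Con. The median difference over all genes was -0.04 in DKO and -0.09 in Con.

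**Figure D1:**
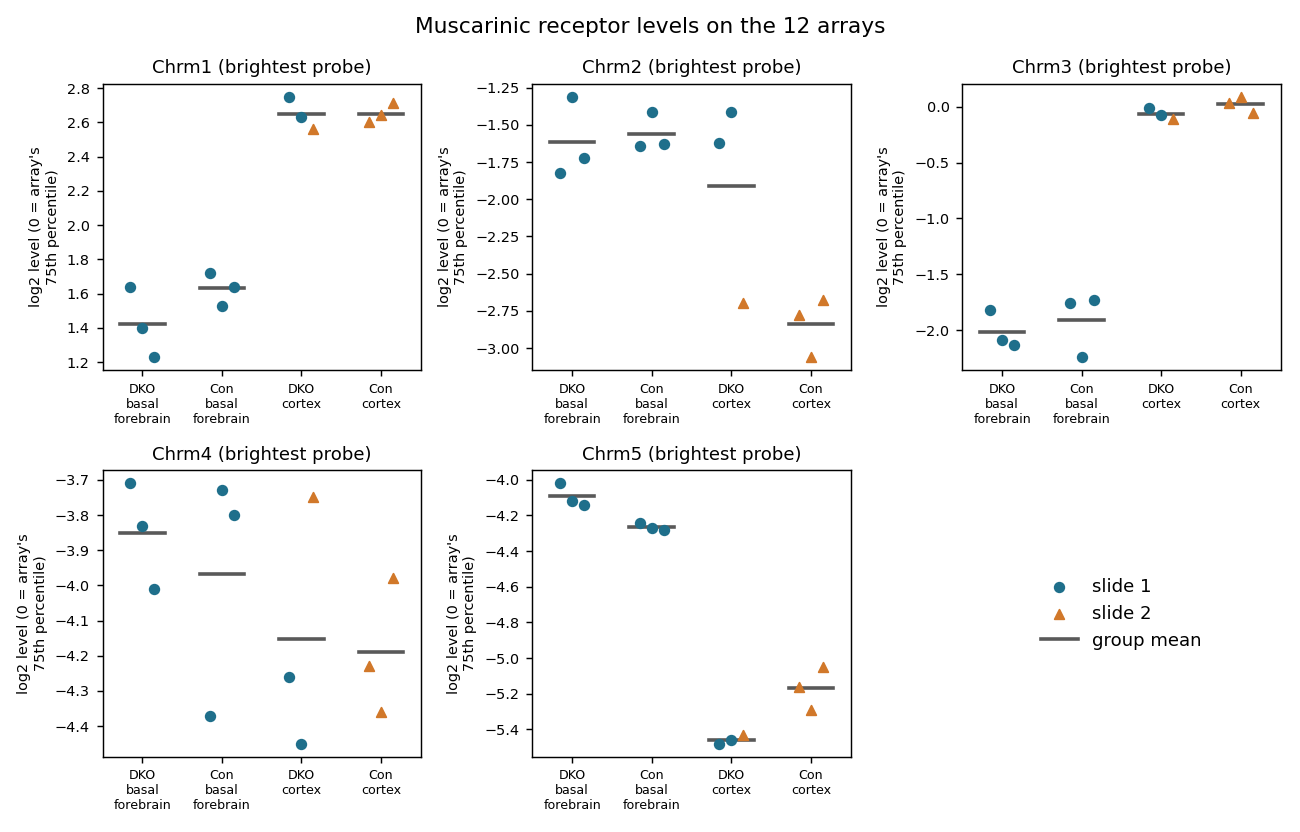
Log2 level of the brightest probe of each receptor on each of the 12 arrays, by group, with 0 at the array's 75th percentile; the bar is the mean of 3 mice, and circles and triangles are arrays of slides 1 and 2. Chrm1 and Chrm3 sit lower in basal forebrain than in cortex, Chrm5 higher, and Chrm2 in DKO cortex splits between -1.62 and -1.41 on slide 1 and -2.70 on slide 2.

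Chrm3, which drives the Gq pathway in smooth muscle and glands as well as in neurons, had the widest region difference of the 5. The log2 levels of its probe 1 in mice 1, 2 and 3 were -1.82, -2.09 and -2.13 in DKO basal forebrain and -0.01, -0.07 and -0.11 in DKO cortex. In Con it stood at -1.76, -2.24 and -1.73 in basal forebrain and at 0.03, 0.09 and -0.06 in cortex. Every basal forebrain array lay below every cortex array by more than the whole range within either region. The difference of basal forebrain minus cortex was -1.95 (SE 0.14, 95% interval -2.25 to -1.65, adjusted p = 9.9e-07, limma) in DKO, a 3.87-fold lower level, with 3 mice in the group. In Con it was -1.93 (SE 0.14, interval -2.23 to -1.63, adjusted p = 1.24e-06, limma), a 3.80-fold lower level. The second probe of Chrm3 also passed as lower, with a difference of -1.79 in DKO and -1.48 in Con (adjusted p = 6.64e-06 and 2.81e-05 over all probes, limma).

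Chrm1 stood at 1.64, 1.40 and 1.23 in DKO basal forebrain and at 2.75, 2.63 and 2.56 in DKO cortex. Con basal forebrain had 1.72, 1.53 and 1.64, and Con cortex 2.60, 2.64 and 2.71. The regions did not overlap in either genotype, while the genotypes overlapped within each region. The region difference was -1.22 (SE 0.10, interval -1.44 to -1.01, adjusted p = 2.56e-06, limma) in DKO and -1.02 (SE 0.10, interval -1.24 to -0.81, adjusted p = 1.1e-05, limma) in Con, a level 2.34-fold lower in DKO and 2.03-fold lower in Con.

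The 3 probes of Chrm1 did not give 1 answer. Probe 3 passed as lower in basal forebrain, with a difference of -0.83 in DKO and -0.52 in Con (adjusted p = 0.000272 and 0.00472 over all probes, limma). Probe 2, whose bases come from separate stretches of the genome, stood at -2.01, -2.35 and -2.42 in DKO basal forebrain against -2.79, -2.77 and -2.24 in DKO cortex, and at -1.94, -1.68 and -2.41 in Con basal forebrain against -2.17, -2.40 and -2.46 in Con cortex. Its region difference was 0.34 in both genotypes, of the opposite sign, and did not pass (adjusted p = 0.216 in DKO and 0.197 in Con, limma). On each array the gap of probe 1 over probe 2 averaged 3.68 ± 0.06 in basal forebrain and 5.25 ± 0.40 in cortex in DKO (SD, n = 3 each), and 3.64 ± 0.42 and 5.0 ± 0.20 in Con, without overlap between regions. The gap between probes was not tested, and what transcript forms the probes read was not determined here. With the mean of all 3 probes in place of the brightest, the region difference of Chrm1 was -0.57 in DKO and -0.40 in Con and still passed (adjusted p = 0.00164 and 0.00998, limma).

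Chrm5 was the receptor that passed as higher in basal forebrain in both genotypes. Its levels were -4.02, -4.12 and -4.14 in DKO basal forebrain and -5.48, -5.46 and -5.43 in DKO cortex. The Con values were -4.24, -4.27 and -4.28 in basal forebrain and -5.16, -5.29 and -5.05 in cortex. All 6 basal forebrain arrays exceeded all 6 cortex arrays. The difference was 1.36 (SE 0.16, interval 1.00 to 1.72, adjusted p = 5.76e-05, limma) in DKO, a 2.57-fold higher level, and 0.90 (SE 0.16, interval 0.54 to 1.26, adjusted p = 0.00111, limma) in Con, a 1.87-fold higher level. Markers of dopamine neurons differed between the regions as well. Of the 4 that entered, Th, Slc6a3 and Slc18a2 passed as higher in basal forebrain in both genotypes, by 1.93, 1.42 and 0.92 in DKO and by 2.43, 2.13 and 0.74 in Con. Pitx3 differed by -0.34 in DKO and passed as lower in Con, with -0.59, and the fifth marker was not above background on any array. The mean level of the list per array was -3.35 to -3.01 in DKO basal forebrain and -4.09 to -3.76 in DKO cortex, and -3.34 to -2.75 and -3.94 to -3.77 in the same regions of Con. Their part in the Chrm5 difference was not tested. The Chrm5 probe was dim, with a processed intensity of 23.1 to 74.3 over the 12 arrays, and its size depended on the background correction. With normexp at an offset of 50 the difference was 0.47 in DKO (adjusted p = 0.0013, limma) and 0.20 in Con, where it no longer passed (adjusted p = 0.0774, limma).

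Chrm4 stood at -3.71, -3.83 and -4.01 in DKO basal forebrain and at -4.26, -4.45 and -3.75 in DKO cortex. Con basal forebrain had -4.37, -3.73 and -3.80, and Con cortex -4.23, -4.36 and -3.98. The ranges of the 4 groups overlapped. The region difference was 0.31 (SE 0.23, interval -0.20 to 0.81) in DKO and 0.22 (SE 0.23, interval -0.28 to 0.73) in Con, with adjusted p = 0.317 and 0.436 (limma). The markers of striatal medium spiny neurons, cells known to carry Chrm4, had a median region difference of 1.80 in DKO and 1.68 in Con. Chrm4 was read by 1 probe, which was dim, with a processed intensity of 51.4 to 103 over the 12 arrays. Whether its level follows these cells was not tested.

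Chrm2 levels divided by slide. Its levels were -1.82, -1.31 and -1.72 in DKO basal forebrain and -1.62, -1.41 and -2.70 in DKO cortex. In Con it stood at -1.64, -1.41 and -1.63 in basal forebrain and at -2.78, -3.06 and -2.68 in cortex. The 8 arrays of slide 1 lay between -1.82 and -1.31 and the 4 arrays of slide 2 between -3.06 and -2.68, with no overlap, and DKO mouse 3 had its basal forebrain value with the first set and its cortex value with the second. The region difference was 0.29 (SE 0.28, interval -0.31 to 0.89, adjusted p = 0.435, limma) in DKO and 1.28 (SE 0.28, interval 0.68 to 1.88, adjusted p = 0.003, limma) in Con. Within slide 1 the DKO difference was -0.10 (adjusted p = 0.688, limma). With the slide as a block in the fit of all 12 arrays the Con difference was 0.10 and did not pass (adjusted p = 0.881, limma). That block is set by the DKO cortex arrays alone, since no Con group spans both slides.

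The other receptors that passed kept their region difference within slide 1 in DKO. There the difference was -1.27 for Chrm1, -1.98 for Chrm3 and 1.38 for Chrm5 (adjusted p = 0.000935, 0.000225 and 0.00259, limma). With the slide as a block, the Con differences were -1.15, -2.0 and 0.94 (adjusted p = 0.00249, 0.000896 and 0.045, limma). Set mouse by mouse, Chrm3 probe 1 was lower in basal forebrain in 6 of 6 mice, with differences of -2.33 to -1.66, and Chrm1 probe 1 in 6 of 6, with differences of -1.33 to -0.88. Chrm5 was higher in 6 of 6 mice, by 1.29 to 1.46 in DKO and by 0.76 to 1.02 in Con. Chrm2 differed by -0.21, 0.10 and 0.98 in DKO mice 1, 2 and 3, and by 1.14, 1.65 and 1.04 in Con mice.

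**Figure D2:**
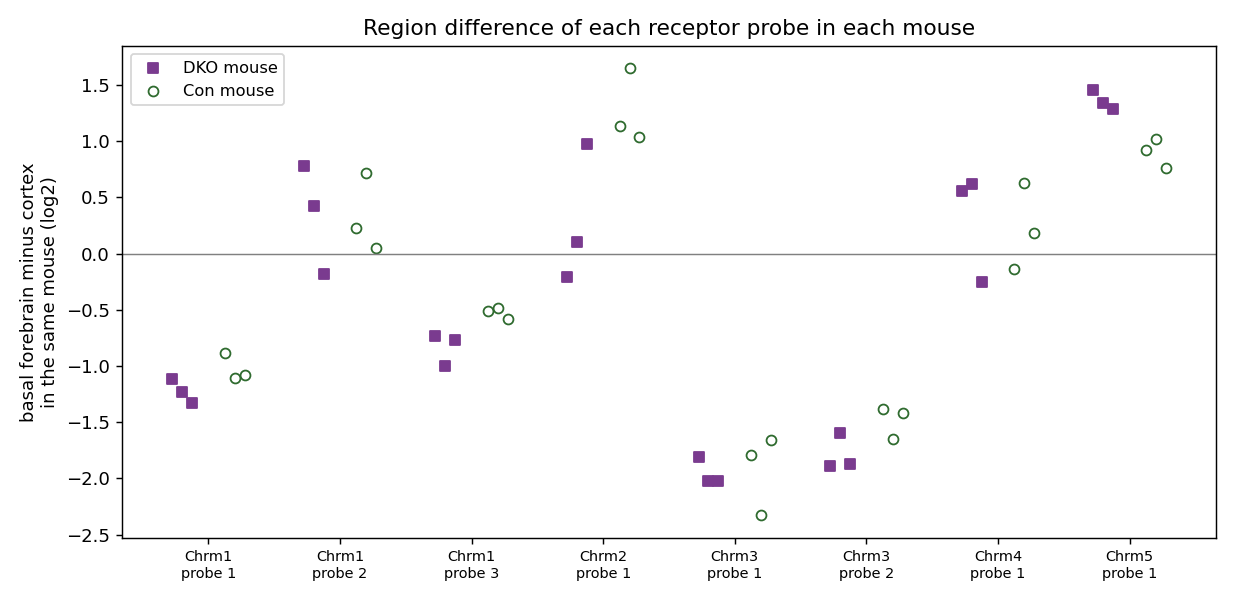
Difference of basal forebrain minus cortex in the same mouse (log2), for each of the 8 receptor probes, with DKO mice as filled squares and Con mice as open circles. Both Chrm3 probes and Chrm1 probes 1 and 3 are below 0 in all 6 mice and Chrm5 is above 0 in all 6, while Chrm1 probe 2, Chrm2 in DKO and Chrm4 lie on both sides or near 0.

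Between the genotypes, no receptor passed in basal forebrain, in cortex or over both regions. In basal forebrain 0 of 5 genes and 0 of 8 probes passed by limma, where 0.0306% of all genes and 0.0321% of all probes passed, and 0 of the 5 had an unadjusted p under 0.05, as had 4.39% of all genes. The differences of DKO minus Con there were -0.21 for Chrm1 (SE 0.11, interval -0.48 to 0.06), -0.06 for Chrm2 (SE 0.16, interval -0.44 to 0.33), -0.10 for Chrm3 (SE 0.18, interval -0.53 to 0.32), 0.12 for Chrm4 (SE 0.22, interval -0.40 to 0.64) and 0.17 for Chrm5 (SE 0.15, interval -0.18 to 0.53). Their adjusted p lay between 0.973 and 0.987 (limma). The intervals leave room for a change of up to 0.64 on the log2 scale, the upper end for Chrm4.

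In cortex 0 of 5 genes and 0 of 8 probes passed by limma, where 0.0116% of all genes and 0.0102% of all probes passed. Chrm2 was the 1 receptor with an unadjusted p under 0.05, as were 18.9% of all genes. Its difference was 0.93 (SE 0.32, interval 0.20 to 1.67, adjusted p = 0.261, limma), a 1.91-fold higher level, and DKO mouse 3 at -2.70 lay inside the Con range. On slide 2, that single DKO array exceeded the mean of the 3 Con arrays by 0.14, and inside DKO cortex the slide 1 arrays exceeded the slide 2 array by 1.18. Without the cortex array of DKO mouse 3 the difference was 1.33 and passed (adjusted p = 0.00129, limma), and without DKO mice 1 and 3, which leaves 1 DKO array assumed to vary like the others, it was 1.43 and passed (adjusted p = 0.00488, limma). In both cases all DKO cortex arrays left are on slide 1 and all Con cortex arrays on slide 2. Over all genes, 57.0% of 25798 had the 2 slide 1 cortex arrays outside the range of the 4 slide 2 arrays, and 3.66% had a wider difference between the slides than the 1.29 of Chrm2.

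The other receptors differed less in cortex. The difference was -0.01 for Chrm1 (SE 0.07, interval -0.17 to 0.16), -0.08 for Chrm3 (SE 0.08, interval -0.27 to 0.11), 0.03 for Chrm4 (SE 0.23, interval -0.50 to 0.57) and -0.29 for Chrm5 (SE 0.21, interval -0.77 to 0.20). Their adjusted p lay between 0.424 and 0.971 (limma). These are the brightest probes. The other probes of Chrm1 differed by -0.26 (probe 2, interval -0.67 to 0.15) and 0.17 (probe 3, interval -0.10 to 0.44). Adjusted p over all probes was 0.406 and 0.399 (limma). Probe 3 stood at -2.21 and -2.21 in DKO on slide 1 and at -2.43 in DKO on slide 2. Con, all on slide 2, had -2.47, -2.46 and -2.44. Over both regions, with the 2 arrays of a mouse averaged, 0 of 5 genes passed by limma, where 0.156% of all genes did, and 0 of the 5 had an unadjusted p under 0.05, as had 10.7% of all genes. The differences were -0.11, 0.44, -0.09, 0.08 and -0.06 for Chrm1 to Chrm5, and that of Chrm2 had adjusted p = 0.466 (limma).

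**Figure D3:**
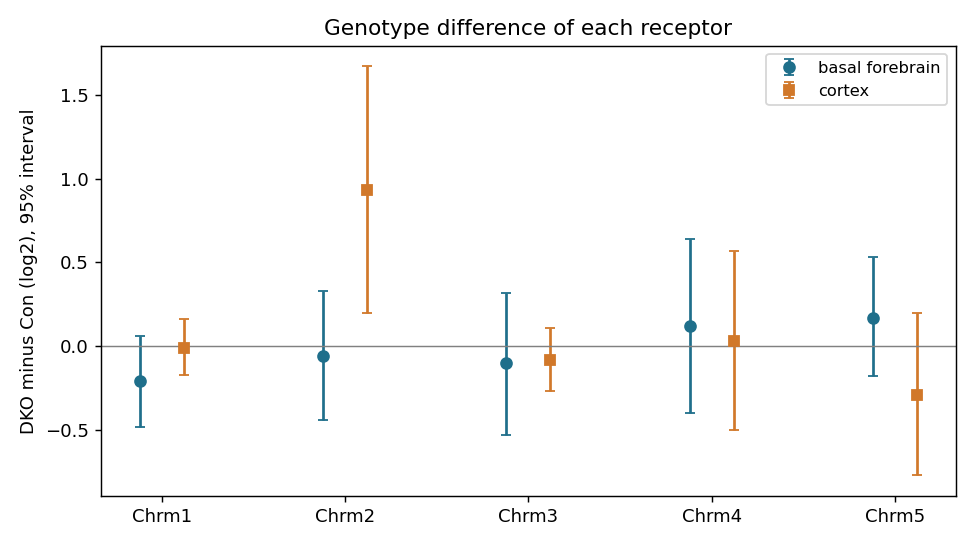
Difference of DKO minus Con (log2) for the brightest probe of each receptor, in basal forebrain (circles) and cortex (squares), each from 3 mice against 3, with the 95% interval of the limma fit. Every interval except that of Chrm2 in cortex (0.20 to 1.67) includes 0, and that one did not pass after adjustment.

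Chrm5 was the receptor whose genotypes did not overlap in either region, in opposite directions. In basal forebrain the 3 DKO values of -4.02 to -4.14 lay above the 3 Con values of -4.24 to -4.28, as did 4.63% of all genes. In cortex the 3 DKO values of -5.43 to -5.48 lay below the 3 Con values of -5.05 to -5.29, as did 13.5% of all genes. The differences were small beside the region difference and neither passed. The interaction, which sets the basal forebrain difference of DKO minus Con against the cortical one, was 0.46 (SE 0.23, interval -0.04 to 0.97, adjusted p = 0.562, limma). For Chrm2 the interaction was -0.99 (SE 0.39, interval -1.84 to -0.14, adjusted p = 0.562, limma), and with the slide as a block it was -0.20. No receptor passed the interaction by limma (0 of 5, with 1 of them, Chrm2, at an unadjusted p under 0.05), and 0% of all genes did, with 8.36% at an unadjusted p under 0.05. Without the cortex array of DKO mouse 3 the interaction of Chrm2 was -1.38 and passed (adjusted p = 0.00933, limma), with the slide again split by genotype in cortex.

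Markers of blood cells differed between the genotypes. As the mean level of the list per array, red cell markers stood at 0.59 to 2.32 in DKO basal forebrain against -1.25 to -0.98 in Con, and leukocyte markers at -0.79 to -0.43 against -3.87 to -3.35. In cortex, red cell markers stood at 0.60 to 1.63 in DKO against -1.03 to -0.68 in Con, and leukocyte markers at -0.65 to -0.02 against -3.60 to -2.87. Of the 5 leukocyte markers, 2 passed as higher in DKO basal forebrain, where 0.0306% of all genes passed, 1 in DKO cortex, where 0.0116% did, and 4 over both regions, where 0.156% did. Ms4a1 is in each of these counts and is the 1 of cortex. It was not above background on any Con array and entered only through DKO, where it is high, so its calls carry no weight. Cd3e passed in none of them, with differences of -0.01 in basal forebrain and -0.34 in cortex. Of the 4 red cell markers that entered, 0 passed in either region by limma, with smallest adjusted p = 0.0998 in basal forebrain and 0.158 in cortex, although 4 had an unadjusted p under 0.05 in each region, and 4 passed as higher over both regions. The part of these cells in the receptor values was not tested. Cholinergic neuron markers averaged 0.90 to 1.13 in DKO basal forebrain against 0.81 to 0.99 in Con, and -3.18 to -2.16 in DKO cortex against -2.22 to -2.03 in Con. The cortex values of DKO divided by slide, with -3.18 and -2.65 on slide 1 and -2.16, inside the Con range, on slide 2. Of the 9 markers 0 passed in either region. The smallest adjusted p among the 9 was 0.973 in basal forebrain and 0.261 in cortex (limma).

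The genes through which the receptors signal were read from lists of the Gq arm (11 genes), the Gi/o arm (10), the M-current channels (3) and the regulators of receptor signalling (12). All 36 entered every comparison. Between the genotypes 0 of 36 passed by limma in basal forebrain, cortex or both regions, with 2, 6 and 4 at an unadjusted p under 0.05, where 4.39%, 18.9% and 10.7% of all genes were. The median difference was -0.03 in basal forebrain, 0.03 in cortex and -0.01 over both, against 0, -0.05 and -0.02 over all genes. The smallest adjusted p was that of Rgs7, a GTPase-activating protein that ends Gi/o signalling. Its difference over both regions was -0.37 (SE 0.06, adjusted p = 0.0724, limma), with -0.36 in basal forebrain and -0.39 in cortex. Kcnj6, a GIRK channel subunit, differed by -0.44 in basal forebrain and -0.48 in cortex, with adjusted p = 0.973 and 0.261 (limma). In cortex every DKO array lay below every Con array for Rgs7 and for Kcnj6, as for 13.5% of all genes. Plcb1, a phospholipase C that Gq activates, differed by 0.15 in basal forebrain and 0.51 in cortex (adjusted p = 0.973 and 0.261, limma). Its cortex levels were 4.02 and 3.91 in DKO on slide 1 and 3.25 in DKO on slide 2. Con, all on slide 2, had 3.11, 3.29 and 3.23 there, so the slide 2 array of DKO lay inside the Con range. The basal forebrain levels of Plcb1, all on slide 1, were 3.70 to 3.78 in DKO and 3.42 to 3.69 in Con. DKO lay above Con without overlap in basal forebrain for 4.63% of all genes. In the Gi/o arm 10 of 10 differences were below 0 in basal forebrain, although that of Gnai2 rounds to 0, with a list median of -0.11, and 48.9% of all genes were below 0. In cortex 5 of 10 were below 0, with a list median of -0.01, and 58.5% of all genes were. Of the 10, none passed in either region. Cortical excitatory neuron markers had a median difference of -0.34 in basal forebrain, with 7 of 9 below 0 and 0 passing. Their mean level per array there was -1.80 to -1.02 in DKO and -1.70 to -0.61 in Con. The part of cortical cells in the Gi/o and receptor values was not tested.

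Between the regions these lists differed more. In each genotype 24 of the 36 genes passed (66.7%), 6 higher and 18 lower in basal forebrain, where 38.3% of all genes passed in DKO and 48.4% in Con. By direction, 18.5% of all genes passed as higher and 19.8% as lower in DKO, and 18.4% and 30% in Con. The median difference was -0.28 in DKO and -0.26 in Con. In the Gq arm 1 of 11 passed as higher and 7 as lower in each genotype. In the Gi/o arm 1 of 10 passed as higher and 7 as lower in each genotype. Adcy1, a calcium-stimulated adenylyl cyclase of neurons, was lower, with a difference of -2.39 in DKO and -2.23 in Con, as was Kcnj9, another GIRK subunit, with -1.87 and -1.64 (adjusted p of all 4 values at most 4.66e-07, limma).

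Of the M-current channels, Kcnq5 passed as higher in DKO basal forebrain, by 1.3 (adjusted p = 0.00689, limma), and 0 of 3 passed in Con, where Kcnq5 differed by 0.48 (adjusted p = 0.222, limma). The difference between genotypes did not pass (interaction 0.82, adjusted p = 0.563, limma). Among the regulators, Rgs7 passed as lower, with a difference of -1.08 in DKO and -1.11 in Con, and Rgs8 as higher, with 0.94 and 0.97. Of the 12 regulators, 3 passed as higher and 4 as lower in DKO, where 18.5% of all genes passed as higher and 19.8% as lower. In Con 4 passed as higher and 4 as lower, where 18.4% and 30% of all genes did. All 4 genes of acetylcholine supply passed as higher in basal forebrain in both genotypes. Slc18a3, the vesicular acetylcholine transporter, was higher by 3.82 in DKO and 3.07 in Con, and Slc5a7, the choline transporter, by 3.85 and 3.12. Chat, the enzyme that makes acetylcholine, was higher by 2.16 and 1.95, and Ache, which breaks it down, by 1.58 and 1.70.

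For each receptor, the genes with the nearest profile over the 12 arrays were found as a description, with no test. The measure was the root mean square difference of level over the 12 arrays, each gene being centred on its own mean, over 14794 candidate genes that were well above background on all arrays. Chrm3 had Sidt1 (0.0858), Gfra2 (0.0881) and Mpped1 (0.0973). Sidt1 stood at 1.38, 1.29 and 1.19 in DKO basal forebrain and at 3.22, 3.21 and 3.13 in DKO cortex. In Con it stood at 1.5, 1.05 and 1.55 in basal forebrain and at 3.13, 3.15 and 3.16 in cortex. Con mouse 2 was the lowest of the 3 Con basal forebrain arrays for Sidt1, Gfra2 and Mpped1 as it was for Chrm3. Choosing genes by nearness to Chrm3 favours such a match.

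Chrm1 had Syt16 (0.0907), Lrrc57 (0.103) and Nrg3 (0.104), and Chrm5 had Il13ra1 (0.0943), Zdbf2 (0.113) and Xrcc3 (0.12). Il13ra1, a subunit of the interleukin 13 receptor, stood at 0.40, 0.37 and 0.31 in DKO basal forebrain and at -0.82, -0.92 and -0.93 in DKO cortex. Its Con values were 0.41, 0.27 and 0.23 in basal forebrain and -0.76, -0.80 and -0.74 in cortex. Chrm4 had Glis1 (0.137), H2-Q5 (0.148) and Serpine2 (0.154). The SD of Chrm4 over the 12 arrays, 0.28, was close to that of the median gene, 0.26, so its profile holds little to match.

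The genes nearest to Chrm2 were Chd4 (0.154), Tnrc18 (0.16) and Jmy (0.212). Chd4, a chromatin remodeller, stood at 3.98, 3.96 and 3.96 in DKO basal forebrain and at 3.78, 3.88 and 2.85 in DKO cortex. In Con it stood at 3.90, 4.12 and 3.90 in basal forebrain and at 2.69, 2.66 and 2.78 in cortex. As for Chrm2, the cortex array of DKO mouse 3 sat with the Con cortex arrays of its slide. Tnrc18 and Jmy had the same split, with 0.87 and 0.37 on that array. All 3 genes were chosen for a profile near that of Chrm2, so sharing its split follows from the choice.

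**Figure D4:**
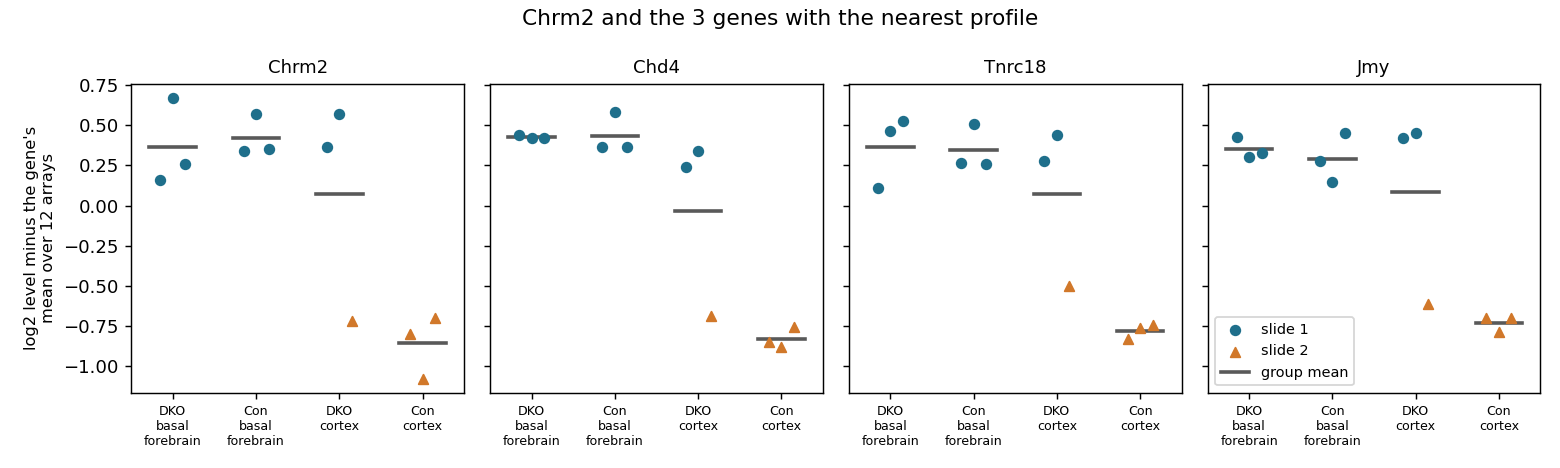
Log2 level minus the gene's own mean over the 12 arrays, for Chrm2 and the 3 genes with the nearest profile, by group; circles and triangles are arrays of slides 1 and 2 and the bar is the mean of 3 mice. In all 4 panels the 8 slide 1 arrays lie above the 4 slide 2 arrays, the cortex array of DKO mouse 3 among them. The 3 genes were chosen for nearness to Chrm2, so the shared split follows from the choice.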

How the data were processed

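RNA of 2 brain regions of 6 mice was measured on 12 Agilent 1-colour (Cy3) arrays. Per the file headers, Feature Extraction 10.7.1.1 under protocol GE1_107_Sep09 wrote the deposited intensity of each spot, background-subtracted and detrended but not scaled between arrays. The authors' log2 values in the deposited table of the whole series have the same sorted values on all arrays, as quantile normalization leaves them; the steps behind them are not given in the sources used here. Those values were used as an alternative, and 12 flag columns of that table were not.

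Of 56605 probes (59305 spots), 37 were dropped because an array had no unflagged spot of them. A RefSeq table named 32972 of the 56568 left, and 23596 kept the file's name. The share of probes well above background was 68.9% to 75% per array, and replicate arrays correlated at 0.985 to 0.995. The number of arrays limits the precision.

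Log2 intensity minus the array's 75th percentile was fitted with limma 3.58.1 (lmFit, eBayes with trend=TRUE, R 4.3.3, statmod 1.5.0, version 1.17.8 of data.table), each gene being read from the probe with the highest mean. It entered when that probe was well above background on all 3 arrays of a group. Genotypes were tested in each region on 6 arrays, and over both regions on 6 mouse means. Regions and the interaction were tested on 12 arrays in 4 groups. The scripts were tested on simulated data.

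All receptor genes and probes were named, with up to 2 members of each signalling list by smallest p in a comparison, the acetylcholine supply genes, and 3 genes nearest in profile. Ache, Ms4a1 and Cd3e were added after their values were seen. The members and lists were chosen with earlier results of these data known. The labels give both regions of a mouse the same animal identifier, which pairs them. Deviations of the 2 arrays of a mouse correlated at -0.09 to 0.15 in DKO and 0.21 to 0.39 in Con. Alternatives were background correction, scaling, the authors' values, filters, probes per gene, the prior, pairing, slide and arrays left out. A further alternative left out the mice whose Xist, Ddx3y, Eif2s3y and Uty go against the label. Results for some further genes are not reported here.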

Additional observations from a re-analysis of the deposited data

Results flagged for a closer look

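Chrm5 was the receptor whose genotype difference pointed opposite ways in the 2 regions without overlap of the groups. Every DKO array lay above every Con array in basal forebrain, by 0.17 on average, and every DKO array lay below every Con array in cortex, by -0.29. The difference between these was 0.46 (SE 0.23), and the interaction did not pass (adjusted p = 0.562, limma). Over the alternatives it lay between 0.16 and 0.52, with adjusted p of 0.184 to 1. The Chrm5 probe was dim, at an intensity of 23.1 to 74.3, and in cortex the genotypes are split between slides except for DKO mouse 3, whose value of -5.43 on slide 2 lay with the other DKO arrays.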

How the results depend on the processing

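No receptor that passed changed direction under any alternative. The number of receptors passing between genotypes stayed at 0 in basal forebrain and over both regions under every alternative run. Leaving out 1 array at a time gave 0 to 1 in cortex and 0 to 1 for the interaction, and without DKO mice 1 and 3 cortex had 1, in each case Chrm2. In the regions, 3 passed in DKO with the mouse as a replicate block and 4 in Con, as without it, and this paired fit changed no other call. Between genotypes the replicate numbers are only shared numbers (correlations of -0.49 to 0.45), and a replicate block on them left 0 passing in basal forebrain, cortex and both regions. Chrm1, Chrm3 and Chrm5 passed between regions in DKO under all 26 alternatives, and Chrm1 and Chrm3 in Con under all 23. Some of these alternatives left out only arrays of the other genotype, which alters the estimate of the spread but cannot move the difference. The sign counts between regions below include them too. In Con, Chrm5 ended at 0.20 with normexp and Chrm2 at 0.10 with the slide as a block, and the cause was not tested. Sign changes occurred only among differences that did not pass, in 4 of 80 values between genotypes in basal forebrain, 6 of 95 in cortex, 2 of 80 over both regions, 5 of 130 between regions in DKO, 1 of 115 in Con and 14 of 125 of the interaction. In 2 alternatives chosen after seeing the data, the Chrm2 region difference in DKO was -0.06 without DKO mouse 3, and 1.08 without the cortex arrays of DKO mice 1 and 2. That fit leaves 1 DKO cortex array, assumed to vary like the other groups, and region then coincides with slide, so its adjusted p of 0.0068 carries no call. Without those 2 arrays the cortex genotype difference of Chrm2 was 0.14. Dim signal, down to an intensity of 51.4 for Chrm4 and 23.1 for Chrm5, limits what can be said of the size of their differences.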
